A study of Rattus norvegicus with 20 samples.

Results

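Ageing of the supraoptic nucleus (SON) was examined in rats with free access to water. The comparison covers the 5 libraries of aged euhydrated rats (aged EH, 18 months old) and the 5 libraries of adult euhydrated rats (adult EH, 3 months old), 10 of the 20 libraries of a study that also dehydrated rats of both ages, and the dehydrated rats are not analysed here. Age and water access are taken from the sample labels, whereas a treatment text that all 20 libraries share describes aged, dehydrated rats and so contradicts the labels of the adult and the euhydrated ones. All 10 rats were male Wistar Han rats, and each library is poly(A) RNA of 1 rat, from punches of the SON of both sides. A punch can hold neurones, glia, vessels and meninges, so every value is a level over that mixture. The values are normalized counts, that is, read counts per gene divided by a size factor for each library, and they compare rats for the same gene, not one gene with another. Fold values below are 2 to the power of the log2 fold change, and means are given ± SD with n = 5. Where a value is given for each rat, the order is that of replicates 1, 2, 4, 5 and 6.

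The SON is a nucleus of the hypothalamus built around large (magnocellular) neurones that make arginine vasopressin or oxytocin, carry the hormone to the posterior pituitary and release it into the blood. Vasopressin makes the kidney retain water, and the neurones raise its synthesis and release when blood becomes too concentrated. Their cell bodies lie among astrocytes, a dense bed of capillaries and microglia, and the ventral border of the nucleus is a glial sheet next to the leptomeninges.

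The defining genes of the labelled tissue were high in every library. Avp, which encodes vasopressin, was among the genes with the most counts in all 10 libraries, at 118362 to 203771 in adult EH and 147449 to 261822 in aged EH, and Oxt, which encodes oxytocin, was at 74088 to 91089 and 88128 to 116988. Totals of normalized counts were 27033161 to 27849485 in adult EH and 27956641 to 28301320 in aged EH. Of 32402 genes in the table, 15369 had a mean of at least 10 and were tested with limma on log2 of the normalized count plus 1. With a Benjamini-Hochberg adjusted p under 0.05 and no filter on the log2 fold change (LFC, aged less adult), 5.99% of them were differentially expressed genes (DEGs), 2.69% higher and 3.30% lower in aged EH, and for 6.38% of the genes tested the 5 aged and the 5 adult rats did not overlap. Most differences were small. The median size of the LFC among them was 0.35, and 30.8% of them were under 0.25. Of the DEGs, 45.0% were higher in aged EH with the deposited scaling, 28.8% when each library was rescaled to the same total and 53.1% when each was centred on its median, so the balance of the directions rests on the scaling. Aged EH replicate 4 stood lowest of the 10 rats for the meningeal and collagen lists below. Without it the DEGs were 599 rather than 921, and without adult EH replicate 5 they were 594.

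**Figure D1:**
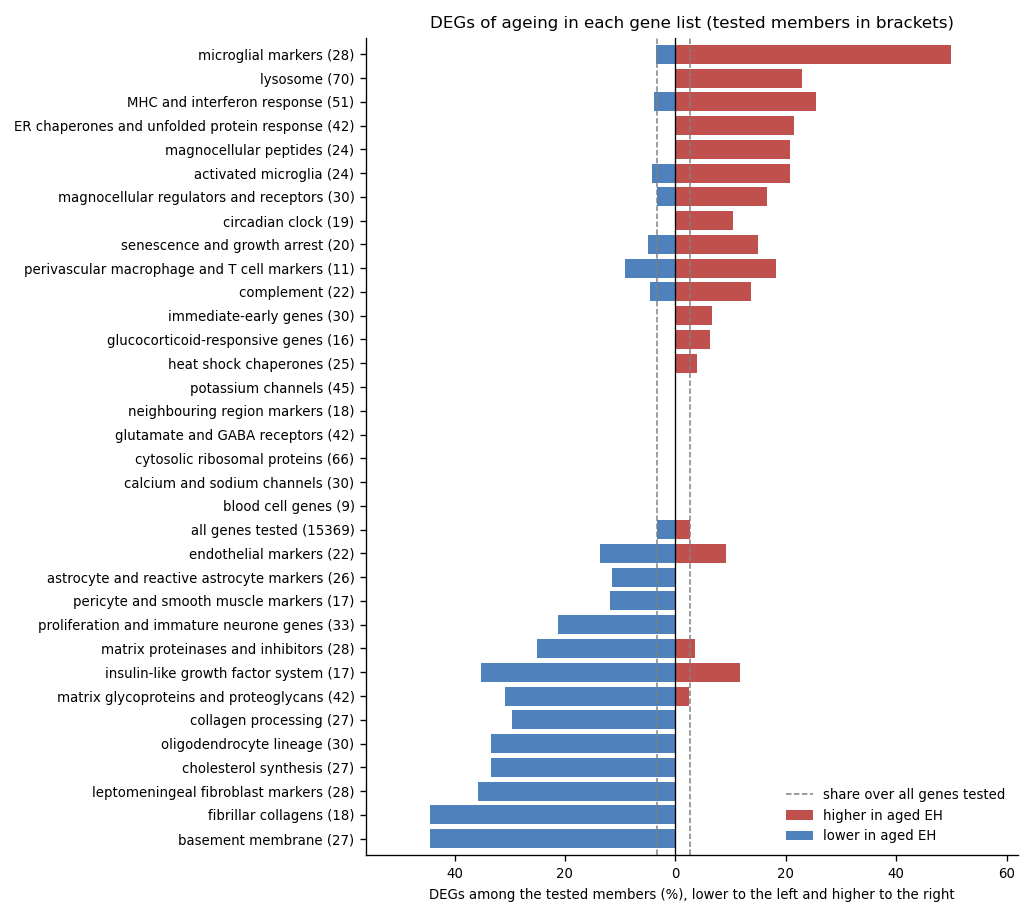
Each bar gives the percentage of the tested members of a gene list (number in brackets) that were DEGs between aged EH and adult EH, lower to the left and higher to the right, and the dashed lines mark the shares over all 15369 genes, 3.30% and 2.69%. Collagen, basement membrane and leptomeningeal lists hold only lower DEGs, lysosomal and ER lists only higher ones, and 14 of 28 microglial markers were higher. The lists were chosen with earlier results of these data known, so the shares describe them and are not a test.

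Vasopressin and oxytocin mRNA were not called different between the ages, whereas several of their co-peptides and regulators were higher in aged EH. Of 24 tested genes for peptides and granule proteins of magnocellular neurones, 5 were higher and 0 lower by limma (7 had an unadjusted p under 0.05, as had 20.3% of all genes), with a median LFC of 0.07 against 0.00033 over all genes. Avp was at 261822, 174007, 255797, 201434 and 147449 in the aged rats and 203771, 118362, 174714, 160647 and 196169.6 in the adult rats. The means were 208102 ± 50116 and 170733 ± 33907, the LFC was 0.28 with a standard error (SE) of 0.16 and the adjusted p 0.388, and the ranges overlapped widely. Oxt was 99877 ± 11106 in aged and 83045 ± 6987 in adult rats (LFC 0.26, SE 0.074, adjusted p = 0.0524). This value lies just outside the threshold, and the call was made without aged EH replicate 1 (adjusted p = 0.0283) or adult EH replicate 4 (0.0458), and with library weights (0.035) or libraries centred on the median (0.0425). In a punch, fewer cells of a type and less RNA per cell cannot be told apart, here or for the lists that follow.

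Pdyn encodes prodynorphin, whose opioid peptides are stored with vasopressin. Its values were 22816, 23931, 30541, 23680.5 and 17739 in aged and 14565, 10437, 13140.2, 14616 and 15954 in adult rats, 1.72-fold higher with age (LFC 0.78, SE 0.13, adjusted p = 0.00308), and every aged rat lay above every adult rat. Ucn encodes urocortin, a peptide of the corticotropin-releasing factor family. It was low in adult rats, at 23.1, 23.8, 32.0, 26.4 and 39.2, and stood at 184, 152, 440.5, 315 and 130.0 in aged rats (LFC 2.91, SE 0.29, adjusted p = 0.000109). The groups did not overlap, but the aged rats spread over a wide range, with replicates 4 and 5 highest. Vgf, the precursor of several peptides of secretory granules, rose 1.35-fold (1905 ± 210.0 against 1411 ± 115, adjusted p = 0.00435), and Cartpt, the precursor of the CART peptides, rose 1.46-fold (2359 ± 393 against 1597 ± 158, adjusted p = 0.00833), the latter with an aged rat inside the adult range. Scg2, which encodes the granule protein secretogranin II, was 1.16-fold higher (adjusted p = 0.0405). Its call was kept only without aged EH replicate 1 or adult EH replicate 2 and was lost without any other rat (adjusted p up to 0.0997, without aged EH replicate 5). Chgb, the granule protein chromogranin B, was at 19381 ± 1466 and 18015 ± 489.8 (adjusted p = 0.221), and Gal, which encodes galanin, at 1373 ± 281 and 1613 ± 244 (adjusted p = 0.317).

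The list of regulators and receptors of magnocellular neurones gave 5 higher and 1 lower DEG of 30 tested, with a median LFC of 0.06. Caprin2 encodes an RNA-binding protein that binds vasopressin mRNA. It was at 5225, 5167, 6162, 4521 and 2968 in aged and 2684, 1936, 2861, 2763 and 2583 in adult rats (1.84-fold, LFC 0.88, SE 0.16, adjusted p = 0.00606). The lowest aged rat, replicate 6, was just above the highest adult rat. Giot1, which encodes a zinc-finger transcription factor, rose 1.50-fold, from 199.5 ± 19.3 to 301 ± 43.0 (adjusted p = 0.0065). Creb3l1, a transcription factor of the vasopressin gene, had an LFC of 0.52 (SE 0.17) and did not pass the test (adjusted p = 0.103), except without aged EH replicate 6 (0.0261). The other higher DEGs were the prohormone-processing enzymes Pcsk1 (1.40-fold, adjusted p = 0.0291), Pam (1.21-fold, 0.0314) and Pcsk2 (1.11-fold, 0.0346). All 3 calls were lost without adult EH replicate 2 (adjusted p = 0.0544, 0.0698 and 0.0536), without aged EH replicate 2 (0.0655, 0.0666 and 0.0631) or without aged EH replicate 5 (0.0541, 0.0652 and 0.0782). Pcsk1 was also lost without aged EH replicate 4 (0.0568) and adult EH replicate 5 (0.063), Pam without adult EH replicates 1 (0.0548) and 6 (0.0547), and Pcsk2 kept its call only without aged EH replicate 6.

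Of 4 receptor genes chosen from the DEGs, Rxfp3 and Gipr were higher and Aplnr and Bdkrb2 lower. Aplnr encodes the receptor for the peptide apelin and was the lower DEG of the 30 regulators and receptors above. It was at 792, 943, 738, 823 and 709.9 in aged and 1164, 1204, 1293, 1069.5 and 1306 in adult rats, without overlap (LFC -0.59, SE 0.075, adjusted p = 0.000631). The other receptors named here are outside that list. Rxfp3, the receptor for relaxin-3, rose 1.91-fold, from 418 to 628 to 725 to 1328 (adjusted p = 0.00203), and Gipr, the receptor for the gut hormone GIP, rose 3.56-fold, from 66.4 to 122 to 261 to 384 (adjusted p = 5.78e-05). Bdkrb2, the bradykinin B2 receptor, fell from 68.8 to 100.1 to 24.2 to 36.5 (LFC -1.47, adjusted p = 0.000236). None of these 4 receptors overlapped between the ages. This is no separate result, because 670 of the 921 DEGs did not overlap and genes named by their LFC had to have groups apart.

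Among other neuronal genes with the largest differences, Th encodes tyrosine hydroxylase, the first enzyme of catecholamine synthesis. It was at 2323, 1673, 3664, 1723 and 1479.7 in aged and 613, 788, 906, 929 and 1243 in adult rats (2.35-fold, SE of the LFC 0.22, adjusted p = 0.006), with aged EH replicate 4 far above the rest. Nmb, which encodes neuromedin B, was 2.48-fold higher in aged EH at low levels (71.9 to 152 against 28.7 to 43.3, adjusted p = 0.00298). Npff, which encodes neuropeptide FF, was 2.00-fold lower (32.0 to 68.7 against 72.3 to 126, adjusted p = 0.0102). Markers of neighbouring cortex and hypothalamic nuclei gave 0 DEGs of 18 tested by limma (3 at an unadjusted p under 0.05, and 1 DEG without adult EH replicate 1). Their summed level was 3417 to 6333 in aged and 2467 to 5448 in adult rats, and their part in the neuronal differences was not tested. 

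**Figure D2:**
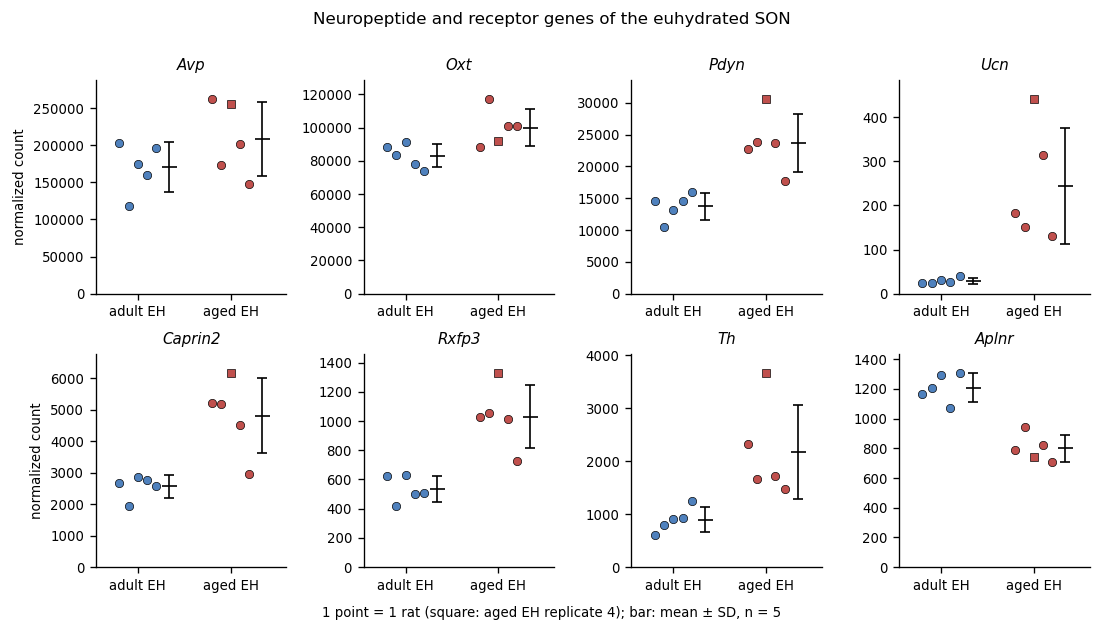
Normalized counts (linear axes from 0) of 8 neuronal genes in each adult EH and aged EH rat, 1 point a rat, with the mean and SD beside the points. The groups overlap for Avp and Oxt, are separate and higher with age for Pdyn, Ucn, Caprin2, Rxfp3 and Th, and separate and lower for Aplnr.

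A part of the genes of the extracellular matrix was lower in aged EH. Collagens and laminins build the sheets and fibres around vessels and in the meninges, proteoglycans and tenascins fill the space around brain cells, and a set of enzymes folds, trims and cross-links collagen. In 5 lists that cover these roles, 48 of 142 tested genes were lower, 2 higher and 92 not called. The median LFC was -0.20. Their summed level was 184858 to 200137 in aged and 219539 to 235835 in adult rats, without overlap.

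Of 18 fibrillar and associated collagens 8 were lower and 0 higher (12 at an unadjusted p under 0.05), with a median LFC of -0.34. Col3a1, which encodes the chain of collagen III, was at 1463, 2079, 1057, 1564 and 1400.4 in aged and 3894, 3574, 3857, 3933 and 3438 in adult rats (2.53-fold lower, LFC -1.34, SE 0.13, adjusted p = 9.3e-05). Even the highest aged rat, replicate 2, lay far below the lowest adult rat. Smaller falls were seen in Col14a1 (LFC -0.84, adjusted p = 0.00735) and in the collagen VI chains Col6a1 (-0.58, 0.00257) and Col6a3 (-0.53, 0.00894), and Col5a2 of collagen V fell the least of those named (LFC -0.36, 0.00298). Col12a1 had an LFC of -0.87 (adjusted p = 0.0171) with overlapping groups, and its call was lost with moderation that does not follow the mean (0.0719) or that is robust to outlying genes (0.0808).

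In the basement membrane, the thin sheet under endothelial and meningeal cells, 12 of 27 tested members were DEGs in the lower direction and 0 in the higher (18 at an unadjusted p under 0.05), and the median LFC was -0.27. Nid2, which encodes nidogen-2, a linker of laminin and collagen IV, was at 315, 311, 223, 284 and 257 in aged and 484, 507, 535, 534 and 473 in adult rats (LFC -0.87, SE 0.090, adjusted p = 0.000149), while Nid1, which encodes its paralogue, was at 4149.5 ± 309 and 3999 ± 270.1 (LFC 0.053, adjusted p = 0.674). Col4a1, a chain of the collagen IV network, fell from 2088 to 2596 to 1611 to 1845 (LFC -0.45, adjusted p = 0.000436). Laminin chains of each type were lower, with LFCs of -0.41 for Lama2, -0.41 for Lamb1, -0.27 for Lamc1 and -0.51 for Lamc3 (adjusted p = 0.000632, 0.000707, 0.00191 and 0.00151), none with overlap. Sparc, a secreted collagen-binding protein and among the 10 DEGs with the highest mean, was at 46805 ± 1729.8 in aged and 57772 ± 4387 in adult rats (LFC -0.30, SE 0.050, adjusted p = 0.00387). Agrn, which encodes agrin, did not pass the test (LFC -0.17, adjusted p = 0.0729) unless adult EH replicate 6 (0.0311) or aged EH replicate 4 (0.0343) was left out.

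Of 42 glycoproteins and proteoglycans 13 were lower and 1 higher, with a median LFC of -0.27. Tnc encodes tenascin-C, a glycoprotein made by astrocytes and in growing tissue. It was at 699, 748, 687, 741 and 752 in aged and 1078, 1029, 1283, 1209 and 1305 in adult rats (LFC -0.70, SE 0.066, adjusted p = 9.3e-05), with little spread among the aged rats. Ncan, which encodes neurocan, a chondroitin sulphate proteoglycan of the brain, was at 2538, 2514, 2580.5, 2519 and 2686 and 3212, 3446, 3401, 3291 and 3672 (LFC -0.41, SE 0.039, adjusted p = 9.39e-05), whereas Bcan, for the related brevican, did not pass (LFC -0.19, adjusted p = 0.103, and 0.0341 without aged EH replicate 2). Both lower genes separated the ages completely. The elastic fibre genes Eln (elastin) and Fbn2 (fibrillin-2) fell 1.84-fold and 2.92-fold (adjusted p = 0.00206 and 0.00647, the latter at counts of 12.0 to 34.1 in aged rats). Thbs1 (thrombospondin-1) and the small leucine-rich proteoglycans Fmod and Lum had LFCs of -0.87, -0.63 and -0.77 (adjusted p = 0.00104, 0.00734 and 0.00923). The higher gene was Spock1, a proteoglycan (LFC 0.16, adjusted p = 0.0474), whose call was kept only without aged EH replicate 6 or adult EH replicate 5. The count of the list fell to 9 without adult EH replicate 2.

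Collagen processing gave 8 lower and 0 higher DEGs of 27 (11 at an unadjusted p under 0.05), with 19 not called and a median LFC of -0.11. Its summed level overlapped between the ages, at 20907 to 23737 in aged and 23570 to 24534 in adult rats. Serpinh1 encodes HSP47, the collagen chaperone of the endoplasmic reticulum, and was at 1978, 1779, 1503, 1892 and 1681 in aged and 2404, 2471, 2406, 2517 and 2626 in adult rats (LFC -0.50, SE 0.062, adjusted p = 0.000552). The procollagen proteinase Adamts2 fell 1.59-fold (adjusted p = 0.000469). The procollagen C-proteinase enhancers Pcolce and PCOLCE2 fell 1.84-fold and 2.19-fold (adjusted p = 0.000894 and 0.0026), and the cross-linking oxidases Lox and Loxl1 1.74-fold and 1.33-fold (adjusted p = 0.0171 and 0.00605). The lower genes thus held a chaperone, trimming enzymes and cross-linkers, as well as the collagens they act on. Of 28 matrix proteinases and inhibitors 7 were lower and 1 higher, with a median LFC of -0.07. Mmp14, a membrane-bound collagenase, was at 619, 669, 501, 577 and 603 in aged and 1192, 1007, 1132, 964 and 996 in adult rats (LFC -0.83, SE 0.078, adjusted p = 9.3e-05). Mmp15 (LFC -0.26, adjusted p = 0.000513), the proteoglycan-cleaving Adamts4 (-0.53, 0.00326) and Adamts12 (-0.64, 0.00326) were lower too. The higher gene, Mmp9, encodes gelatinase B and was at 57.5 ± 23.9 in aged and 25.1 ± 10.6 in adult rats (2.25-fold, adjusted p = 0.028). Aged EH replicate 6 held its highest value (99.6), the groups overlapped, and the call was lost without adult EH replicates 1 (0.0634), 2 (0.0616) or 6 (0.0583) or aged EH replicates 2 (0.0529) or 4 (0.0521). Lox, like Mmp9, also lost its call with moderation that does not follow the mean (adjusted p = 0.0587 and 0.0693).

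**Figure D3:**
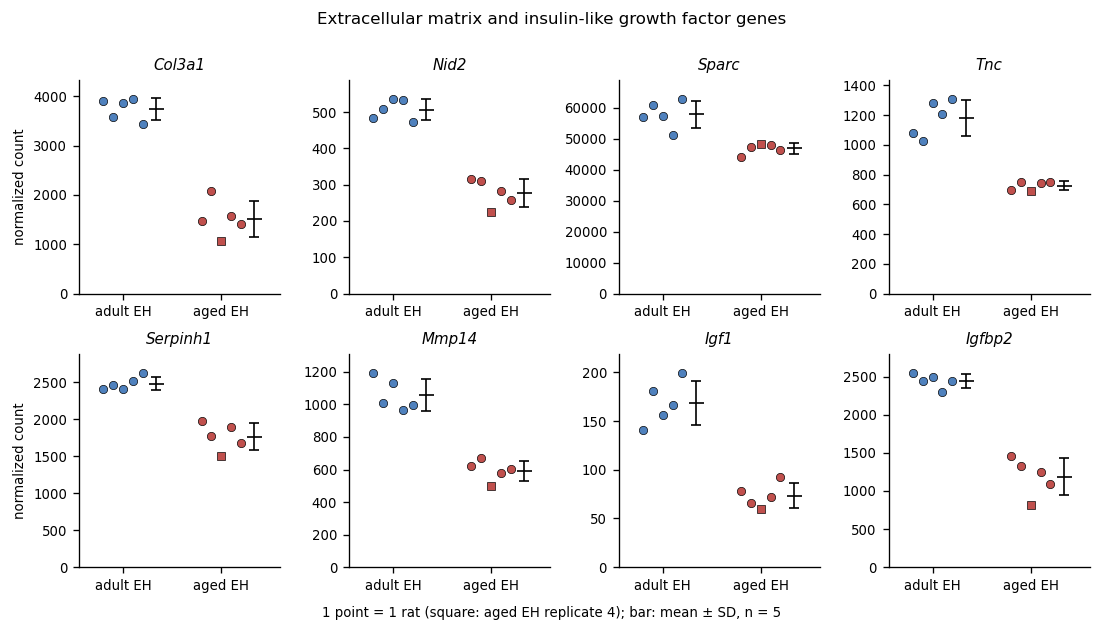
Normalized counts (linear axes from 0) of 6 matrix genes and 2 genes of the insulin-like growth factor system in each rat, 1 point a rat, with the mean and SD. In all 8 panels the 5 aged EH rats lie below the 5 adult EH rats.

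The same rats differed in markers of the leptomeninges, the thin membranes on the brain surface, whose fibroblasts make collagen. Of 28 tested markers 10 were lower and 0 higher (21 at an unadjusted p under 0.05), 27 had a negative LFC and the median LFC was -0.42. The summed level was 48412 to 59534 in aged and 70751 to 81950 in adult rats. Without the markers that are themselves matrix or insulin-like growth factor genes, 6 of 22 were lower, all 22 LFCs were negative, and the sums were 41221 to 47851 and 50742 to 57417. Of the 10 calls 3 were lost without at least 1 rat, and those 3 are all among these 6. A gene among those 3 is also counted in the list of the oligodendrocyte lineage below. The leptomeningeal list contains transporters of the meningeal barrier. Slc22a6, an organic anion transporter, fell from 1045, 873, 1145, 1032 and 802 in adult to 756, 582, 492, 562 and 610.3 in aged rats (LFC -0.71, SE 0.11, adjusted p = 0.0026). For Slc13a4, a sulphate transporter, the LFC was -0.58 (adjusted p = 0.0585) and for Slc22a8 -0.33 (0.0634), so both missed the threshold. Slc22a8 passed it without aged EH replicate 1 (0.0445) or adult EH replicate 6 (0.0384), and Slc13a4 without aged EH replicate 6 (0.0379) or adult EH replicate 6 (0.042). Aldh1a2, a retinoic acid-synthesizing enzyme of the meninges, fell 1.59-fold (adjusted p = 0.00548), and the transcription factor Tbx18 1.50-fold (0.0167, and 0.0604 with moderation that does not follow the mean). Aged EH replicate 4 had the lowest mean deviation of this list, -0.71 on the log2 scale, against -0.24 to -0.00084 in the other aged and 0.075 to 0.41 in the adult rats. Without it 8 markers, 7 fibrillar collagens and 12 basement membrane genes were called. The part of the meningeal content of the punches in the lower matrix genes was not tested.

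Genes of the insulin-like growth factor system gave 6 lower and 2 higher DEGs of 17 tested, with a median LFC of -0.14. Insulin-like growth factors are growth signals held by binding proteins and freed by proteinases that cleave these. Igf1 was at 77.9, 66.1, 59.5, 71.6 and 92.2 in aged and 140.4, 180.4, 156, 167 and 199 in adult rats (LFC -1.19, SE 0.13, adjusted p = 0.000236). Igfbp2, a binding protein, was at 1460.2, 1323, 816, 1251 and 1091 and 2545, 2439.9, 2491, 2297 and 2435 (LFC -1.06, SE 0.12, adjusted p = 0.000184). For both genes the ages were separate. Pappa2, a proteinase that cleaves binding proteins, fell 2.66-fold (111 to 207 against 317 to 485, adjusted p = 0.000331), Igfbp5 1.26-fold (0.00522) and Igf2bp2, an RNA-binding protein of Igf2 mRNA, 2.04-fold (0.00923). Igfbp3 rose 1.43-fold (adjusted p = 0.0251), a call lost without adult EH replicates 2 (0.0553) or 4 (0.0537) or aged EH replicate 5 (0.0531). Igf2 and Igfbp2 are also meningeal markers.

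Of 22 endothelial markers 3 were lower and 2 higher, with a median LFC of -0.10 and summed levels of 24469 to 26524 in aged and 26027 to 27072 in adult rats. The lower ones were Itm2a (LFC -0.28, adjusted p = 0.0011), the endothelial cadherin Cdh5 (-0.35, 0.00404) and the VEGF receptor Kdr (-0.33, 0.0152). The higher ones were Plvap, a protein of the diaphragms of leaky capillaries, at 162, 192, 202, 183 and 234 in aged and 115, 143, 141, 134 and 117 in adult rats (LFC 0.57, SE 0.11, adjusted p = 0.00845), and Abcg2, an efflux transporter of the blood-brain barrier (1.54-fold, 0.00858). Cldn5, the tight junction protein of brain endothelium, had an LFC of -0.11 (adjusted p = 0.0916), under the threshold only without aged EH replicate 6 (0.0369) or with libraries rescaled to the same total (0.0429). Of 17 markers of pericytes and smooth muscle 2 were lower and 0 higher (3 at an unadjusted p under 0.05, and 1 called without aged EH replicate 2 or adult EH replicates 2 or 6), among them the PDGF receptor Pdgfrb (LFC -0.28, adjusted p = 0.00768).

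**Figure D4:**
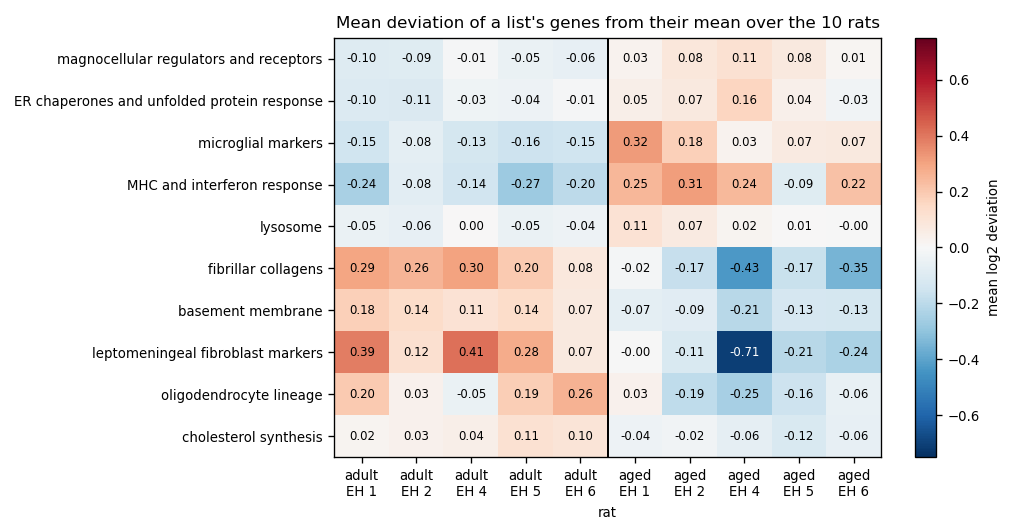
Colour and number give, for each rat (columns) and gene list (rows), the mean over the list of the log2 deviation of each gene from its mean over the 10 rats. The fibrillar collagen, basement membrane and meningeal lists are above 0 in all adult EH and below 0 in all aged EH rats, with aged EH replicate 4 lowest, and the microglial list is above 0 in all aged EH rats.

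Many microglial markers were higher in aged EH. Microglia are the resident macrophages of the brain and sense damage through Fc, complement and lipid receptors. Of 28 tested markers 14 were higher and 1 lower, with a median LFC of 0.28 and summed levels of 19169 to 22597 in aged and 16139 to 17455 in adult rats. Ctss, which encodes the lysosomal proteinase cathepsin S, was at 4504, 3968, 3974, 4424 and 3794 in aged and 3049.6, 3108, 2957, 2715 and 2838 in adult rats (LFC 0.49, SE 0.052, adjusted p = 0.000158), without overlap. The Fc receptor genes Fcgr2b and Fcgr3a rose 1.82-fold and 1.66-fold (adjusted p = 0.00211 and 0.0026). Cx3cr1, the fractalkine receptor, was at 874, 775, 771, 770.1 and 802 in aged and 623, 655, 662, 584 and 714 in adult rats (LFC 0.30, adjusted p = 0.00898). Trem2, a lipid receptor, rose 1.49-fold (adjusted p = 0.0215, and 0.0604 with moderation that does not follow the mean), and Csf1r, the receptor for colony-stimulating factor 1, was at 3409.7 ± 263 and 3140.0 ± 141 (adjusted p = 0.202). The lower marker was Olfml3, a secreted protein (LFC -0.49, adjusted p = 0.0175, and 0.0591 with that moderation). 

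Of 24 genes of activated microglia 5 were higher and 1 lower, with a median LFC of 0.07. Ctsz, another cathepsin, was at 1276, 1393, 1315, 1116 and 1073 in aged and 682, 695, 849, 753 and 702 in adult rats (1.67-fold, SE of the LFC 0.078, adjusted p = 0.000158). Gpnmb, a glycoprotein of phagocytes loaded with lipid, rose 1.77-fold (0.00724) and Lgals3, which encodes galectin-3, 1.62-fold (0.0129). Complement, the cascade of plasma proteins that marks targets for uptake, gave 3 higher and 1 lower DEG of 22. The median LFC was 0.04, and the summed levels overlapped, at 51962 to 58025 in aged and 47636 to 53370 in adult rats. C3, the central component of the cascade, was at 1641, 1514, 1406, 1377 and 1919 in aged and 452, 573, 665, 773 and 731 in adult rats (2.48-fold, LFC 1.31, SE 0.13, adjusted p = 0.000105), and C4b at 173, 189, 198, 213 and 184 and 52.1, 113, 125, 84.5 and 84.5 (2.16-fold, 0.00382). Both genes separated the ages by a wide gap. Cd59, an inhibitor of the end of the cascade, rose 1.22-fold (adjusted p = 0.00238), and C1qa of the first component did not pass (LFC 0.26, 0.0744).

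Genes of antigen presentation and of the interferon response gave 13 higher and 2 lower DEGs of 51 tested, with a median LFC of 0.29. MHC class I molecules show peptides from inside the cell to T cells, and interferons induce them through the transcription factors that bind the interferon-stimulated response element (ISRE). Promoter stretches of 4 of the higher genes are shown because they hold that element, read as GAAA, 2 bases of any kind and GAAA on either strand, in capitals. They run 5′ to 3′ on the gene's strand, end before the transcription start and are RefSeq sequences of the assembly GRCr8, a newer build than the one to which the reads were aligned.
B2m, chr3:129549140-129549229, plus strand: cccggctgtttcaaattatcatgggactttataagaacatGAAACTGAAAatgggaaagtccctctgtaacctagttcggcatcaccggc
Tapbp, chr20:4967878-4967943, minus strand: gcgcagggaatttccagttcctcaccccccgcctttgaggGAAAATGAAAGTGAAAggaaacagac
Ifit3, chr1:241527242-241527325, plus strand: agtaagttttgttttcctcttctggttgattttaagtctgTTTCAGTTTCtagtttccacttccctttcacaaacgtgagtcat
Ifih1, chr3:67683978-67684067, minus strand: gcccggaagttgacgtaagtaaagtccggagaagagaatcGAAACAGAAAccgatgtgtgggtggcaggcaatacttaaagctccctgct
The motif was searched in the 250 bases before the start of 11060 tested genes with an entry and lay in 2.51% of them. In the list it lay in 21 of 40 promoters, among them 7 of the 12 with a higher gene (B2m, Ifih1, Ifit3, Irf7, RT1-S3, Tap1 and Tapbp), and thus also in 14 of the other 28. A match is a description of letters and not of binding.

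B2m encodes the invariant light chain of MHC class I. It was at 18518, 18609.5, 17245, 17761 and 17510.4 in aged and 15098, 14360.2, 14857, 14275 and 15906 in adult rats (LFC 0.27, SE 0.036, adjusted p = 0.00103), without overlap. Tapbp, which encodes tapasin, the protein that holds class I molecules at the peptide transporter, was at 626, 668, 615, 508 and 714 and 483, 400.4, 425, 383 and 348 (1.53-fold, adjusted p = 0.00266). All 15 class I and loading genes had a positive LFC, 8 of them DEGs, with a median of 0.44, and their summed level was 23292 to 26124 in aged and 17589 to 20718 in adult rats. Of 6 class II genes 0 were DEGs by limma (1 at an unadjusted p under 0.05), and Cd74, the class II chaperone, was at 2604 ± 853 and 2052 ± 397. The heavy chain genes RT1-CE5, RT1-A2 and RT1-CE10 rose 1.88-fold, 2.02-fold and 2.43-fold (adjusted p = 0.0016, 0.0102 and 0.018), the last not with moderation that does not follow the mean (0.0733) or is robust (0.0856). They are near-identical copies that can share reads, and the locus varies between outbred rats, so values of single copies are uncertain. Adult EH replicate 1 was highest of the adult rats for all 3, at 553.6 for RT1-CE10 against 194 to 251 in the other adult rats. RT1-S3 was at 1496, 1421, 1518, 1474 and 1461 in aged and 1249.5, 918, 893, 279 and 535 in adult rats (2.14-fold, adjusted p = 0.0407), even in the aged rats and scattered in the adult ones. Its call, like those of the peptide transporter gene Tap1 (1.63-fold, 0.0412) and the transcription factor Irf7 (1.53-fold, 0.0417), was lost in 6 to 8 of the 10 fits without a rat, with adjusted p up to 0.0906 (without adult EH replicate 6), 0.0978 (without adult EH replicate 5) and 0.0991 (without aged EH replicate 2).

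Among interferon-induced genes, Ifit3 was at 64.6, 149, 146, 116 and 92.2 in aged and 48.1, 65.4, 67.8, 41.2 and 54.3 in adult rats (1.98-fold, SE of the LFC 0.22, adjusted p = 0.0188). An aged rat, replicate 1, lay inside the adult range, and the call was lost with moderation that does not follow the mean (0.0567). Ifih1, which encodes the RNA sensor MDA5, rose 1.35-fold (0.0106), and Zc3hav1, an antiviral zinc-finger protein outside the list and among the 15 DEGs with the lowest adjusted p, was at 746, 838, 746, 838 and 731 in aged and 536, 498, 551, 512 and 523 in adult rats (1.49-fold, adjusted p = 9.39e-05). Ifitm1, an interferon-induced membrane protein, was lower (LFC -0.54, 0.0121), as was the T cell chemokine Ccl5 (1.78-fold, 54.3 to 80.1 against 90.3 to 163, 0.00898). Microglia express class I genes too, and the part of the higher microglial markers in these differences was not tested.

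**Figure D5:**
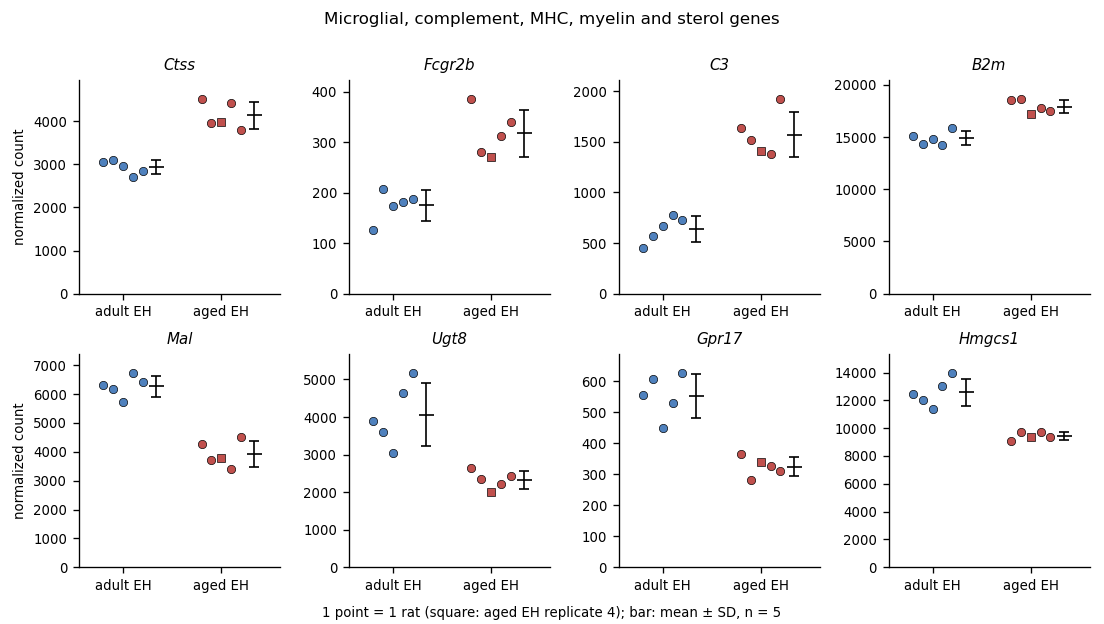
Normalized counts (linear axes from 0) of 8 genes of microglia, complement, MHC, myelin and sterol synthesis in each rat, 1 point a rat, with the mean and SD. The aged EH rats lie above the adult EH rats for Ctss, Fcgr2b, C3 and B2m and below them for Mal, Ugt8, Gpr17 and Hmgcs1.

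Genes of the oligodendrocyte lineage, the cells that make myelin, gave 10 lower and 0 higher DEGs of 30 tested (16 at an unadjusted p under 0.05), with a median LFC of -0.18. Their summed level overlapped between the ages, at 280541 to 336850 in aged and 312190 to 445491 in adult rats. Mbp and Mag, which encode myelin proteins, did not pass (LFC -0.27 and -0.22, adjusted p = 0.127 and 0.0991), except without adult EH replicate 4 (0.0458 and 0.04) and, for Mag, without aged EH replicate 1 (0.0334). The lower genes included enzymes of galactosylceramide, the main glycolipid of myelin. Ugt8, which adds the galactose, was at 2655, 2346, 2008, 2206 and 2431 in aged and 3889, 3601, 3040.0, 4627 and 5170.5 in adult rats (LFC -0.78, SE 0.12, adjusted p = 0.00193), and Fa2h, the fatty acid hydroxylase, fell 1.65-fold (0.00103). Cldn11, the tight junction protein of myelin, fell 1.54-fold (0.00298), Mog 1.29-fold (0.00739) and Cnp 1.27-fold (0.00898). Mal, a myelin proteolipid outside the list, was at 4269, 3710.5, 3776, 3389 and 4509 and 6308, 6182, 5712, 6729 and 6425 (LFC -0.68, SE 0.068, adjusted p = 0.000113). Gpr17 marks cells on the way from precursor to oligodendrocyte. It was at 364, 281, 339, 327 and 309 in aged and 554, 606, 447, 529 and 626 in adult rats (LFC -0.76, SE 0.093, adjusted p = 0.000469), and the ages did not overlap.

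Astrocyte markers gave 3 lower and 0 higher DEGs of 26 (9 at an unadjusted p under 0.05), with a median LFC of -0.07. They were Gja1, which encodes the gap junction protein connexin 43, at 10103 ± 694 in aged and 12285 ± 492 in adult rats (LFC -0.28, adjusted p = 0.00298), Gjb6, for connexin 30 (-0.33, 0.0189), and the water channel Aqp4 (-0.26, 0.018). The latter 2 calls were lost with moderation that does not follow the mean (0.0711 and 0.0684). Gfap, the intermediate filament of astrocytes, was at 44133 ± 6794 and 41265 ± 5082 (LFC 0.092, adjusted p = 0.681).

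Cholesterol synthesis, which is highest in the brain where myelin is made, gave 9 lower and 0 higher DEGs of 27 (15 at an unadjusted p under 0.05), with a median LFC of -0.15. The summed level was 71073 to 71520 in aged and 77084 to 84012 in adult rats. Hmgcs1, an early enzyme, was at 9055, 9736, 9369, 9719.5 and 9362 in aged and 12489, 12057, 11354, 13029 and 13958 in adult rats (LFC -0.41, SE 0.048, adjusted p = 0.000324). Cyp51 and Msmo1, later enzymes, had LFCs of -0.44 and -0.22 (adjusted p = 0.000937 and 0.00875). Fewer of the list were called without adult EH replicates 5 or 6 (4 each) or aged EH replicate 5 (5). Adult EH replicates 5 and 6 were the 2 highest rats for Hmgcs1 as they were for Ugt8, and the part of the lower myelin genes in these differences was not tested.

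Genes of dividing and immature cells gave 7 lower and 0 higher DEGs of 33 (12 at an unadjusted p under 0.05), with a median LFC of -0.19. Mki67, a marker of cycling cells, was at 40.0, 60.1, 49.1, 50.3 and 52.5 in aged and 84.2, 86.2, 93.0, 94.0 and 78.5 in adult rats (LFC -0.79, SE 0.13, adjusted p = 0.0037). The cyclins Ccnd1 and Ccnd2 fell 1.31-fold and 1.56-fold (0.00121 and 0.00145). Nrep, a protein of growing and regenerating neurones, was at 282, 299, 304, 279.6 and 336 and 434, 469, 438, 469.8 and 449.7 (LFC -0.59, SE 0.064, adjusted p = 0.000181), and Dcx, which encodes doublecortin of migrating neurones, missed the threshold (LFC -0.26, 0.069) unless aged EH replicate 6 was left out (0.0309) or libraries were rescaled to the same total (0.0432). Without adult EH replicates 2 or 5 or aged EH replicate 5, 4 of the list were called. Among genes of growth arrest and senescence 3 were higher and 1 lower of 20, with a median LFC of -0.02. The lower one, Cdkn1c, an inhibitor of the cell cycle, fell 1.71-fold, from 655 to 878 to 367 to 491 (adjusted p = 0.000257), and Glb1, the lysosomal beta-galactosidase that is read as a sign of senescent cells, rose 1.31-fold (0.00739). The other 2 higher calls were lost without at least 1 rat, and 2 of the list were called without adult EH replicates 2 or 5 or aged EH replicates 1, 2 or 5.

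A part of the lysosomal genes was higher in aged EH. Of 70 tested, 16 were higher, 0 lower and 54 not called (36 at an unadjusted p under 0.05), with a median LFC of 0.09 and summed levels of 315741 to 333787 in aged and 301091 to 309929 in adult rats. Of the 62 that are in no microglial list, 10 were higher, with a median LFC of 0.07 and sums of 262823 to 279117 and 255047 to 263105, which overlap. The sum over all genes tested was itself higher in aged EH without overlap, at 27943357 to 28288544 against 27020744 to 27837042 in adult rats. Ctsd encodes the proteinase cathepsin D and is also in the list of activated microglia, so it is not among those 62. It was at 16591, 17269, 16853, 16069 and 15508 in aged and 13150.3, 13038, 14177, 13863 and 13745 in adult rats (LFC 0.28, SE 0.036, adjusted p = 0.000829). Other hydrolases and carriers rose by similar amounts, among them the legumain gene Lgmn (LFC 0.21, adjusted p = 0.0047), the ceramidase Asah1 (0.24, 0.00949), Ctsf (0.30, 0.00955) and Npc2, which binds cholesterol in the lysosome (0.30, 0.00739). Gaa, the acid alpha-glucosidase, did not pass (0.14, 0.0823, and 0.0293 without aged EH replicate 6). The promoter of Ctsd holds the element of the lysosomal gene network (CLEAR), read as TCAC followed by GTGA, the same on both strands. It is shown because Ctsd was the single higher gene of 11 with an entry to hold it.
Ctsd, chr1:206968822-206968872, minus strand: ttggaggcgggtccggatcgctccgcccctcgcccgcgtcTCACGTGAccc
The motif lay in 8 of 56 promoters of the list and in 1.41% of all 11060.

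Genes of the endoplasmic reticulum, where peptide precursors fold, gave 9 higher and 0 lower DEGs of 42 (19 at an unadjusted p under 0.05), with a median LFC of 0.09. Their summed level overlapped between the ages, at 183591 to 209503 in aged and 173861 to 188092 in adult rats. Asns, which encodes asparagine synthetase, a target of the amino acid response, was at 1834, 2089, 2353, 1895 and 1959 in aged and 1685, 1599.5, 1646, 1741 and 1608 in adult rats (LFC 0.29, SE 0.059, adjusted p = 0.0121). Dnajb9, an ER chaperone, rose 1.25-fold (0.0141, and 0.0587 with moderation that does not follow the mean). The abundant chaperones Hspa5 (BiP) and Hsp90b1 (GRP94) were 1.16-fold and 1.11-fold higher (adjusted p = 0.0322 and 0.0392), and Canx and Calr, the lectin chaperones, did not pass (LFC 0.087 and 0.099, adjusted p = 0.281 and 0.148). In this list the calls depend on single rats. Its 9 became 3 without aged EH replicate 4, which was highest for the list, or without adult EH replicates 1, 2 or 4, 4 without adult EH replicate 5 or aged EH replicate 2 and 5 without aged EH replicate 5, and 4 with libraries rescaled to the same total. Asns and Dnajb9 were called in all 10 fits without a rat. Both Hspa5 and Hsp90b1 carry the ER stress response element, read as CCAAT, 9 bases of any kind and CCACG on either strand, in capitals below.
Hspa5, chr3:38452933-38453015, plus strand: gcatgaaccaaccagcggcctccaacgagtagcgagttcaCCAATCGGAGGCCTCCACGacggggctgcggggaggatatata
Hsp90b1, chr7:23012307-23012509, minus strand: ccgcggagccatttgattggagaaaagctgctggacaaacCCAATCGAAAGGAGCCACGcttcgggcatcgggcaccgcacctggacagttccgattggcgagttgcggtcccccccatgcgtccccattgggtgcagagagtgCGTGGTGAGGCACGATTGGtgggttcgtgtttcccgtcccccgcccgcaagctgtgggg
It lay in 9 of 34 promoters of the list and 0.154% of all, and the other 7 higher genes with an entry did not hold these letters before their start.

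The listed channel and transmitter receptor genes of neuronal excitability were not called. Other channel genes were outside these lists, and the ATP-gated channel P2rx5 among them was a higher DEG (LFC 0.92). Of 45 potassium channel genes, 30 calcium and sodium channel genes and 42 glutamate and GABA receptor genes, 0 were DEGs by limma, and 3, 1 and 9 had an unadjusted p under 0.05. Over all genes tested these shares were 5.99% and 20.3%. The median LFCs of these lists were 0.01, 0.02 and -0.03, against 0.00033 over all genes tested. Of the glutamate and GABA receptor genes 2 were called without aged EH replicate 1, 1 without aged EH replicate 6 or adult EH replicate 2, and 2 with libraries rescaled to the same total. Of 66 cytosolic ribosomal protein genes 0 were DEGs (3 at an unadjusted p under 0.05), and of 9 blood cell genes 0 were (0 at an unadjusted p under 0.05). Of 19 clock genes 2 were higher, Per2, a repressor of the clock, at 967, 1013, 937, 1186 and 837 in aged and 607, 579, 674, 794 and 652 in adult rats (LFC 0.58, SE 0.093, adjusted p = 0.00308), and Bhlhe41, another repressor (LFC 0.24, 0.0149). Of 30 immediate-early genes 2 were higher, 6.67% against the 5.99% of all genes tested that were DEGs, with a median LFC of 0.003. Fosl1, a partner of Jun, was at 55.9 ± 17.0 in aged and 21.1 ± 9.04 in adult rats (adjusted p = 0.0121), and the other call was lost without at least 1 rat. Per the study's methods, the experiments took place in a single late-morning window, with both ages run in parallel.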

How the data were processed

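Poly(A) RNA from SON punches of 5 aged EH and 5 adult EH rats was sequenced as stranded libraries. Per the labels and the study's methods, the authors trimmed the reads, mapped them to the Rn6 rat genome using STAR and assigned them to genes using featureCounts (for neither tool is a version given). The signal deposited for each library is the read count over a DESeq2 size factor that the authors estimated within the table, so the raw depth is not kept. Columns with the authors' own fold changes, standard errors, test statistics, p-values and group means were not used, nor were 2 tables of the dehydration comparisons. Groups come from the source names and the age and treatment characteristics in the labels, not from the treatment text shared by all samples, which contradicts them. The labels do not state how replicates relate, and the study's methods describe separate rats.

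Normalized counts were analysed on the log2 scale after adding 1. The 10 libraries entered 1 fit with limma 3.58.1 in R 4.3.3 (empirical Bayes with a mean trend, two-sided, Benjamini-Hochberg over all genes tested, threshold 0.05, no LFC filter), restricted to genes whose mean was 10 or more. The procedure was tested on simulated data. Gene lists (33) are described by counts of DEGs and medians, without a set test. The members and lists were chosen with earlier results of these data known. Genes could be named when they were among the 20 highest and 20 lowest LFCs (DEGs with a symbol, groups apart and a mean from 50 up), the 15 DEGs with the lowest adjusted p, the 10 with the highest mean, called list members or, for contrast, abundant list members that were not called, and a selection of these is given. Some genes are not reported here. Cldn5, C1qa, Slc22a8, Mag and Dcx were taken as familiar markers after their values were seen. Promoters are RefSeq sequences (GRCr8). Each alternative altered 1 setting, and figures were drawn with matplotlib 3.10.9.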

Additional observations from a re-analysis of the deposited data

Results flagged for a closer look

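In groups of 5 rats, a value stood apart when its gap to the nearest other rat was more than 0.71 of the whole range of the group. Chance gives about 1 such group in 20, and among the named genes 15 of 322 groups had one. Aged EH replicate 4 was lowest for Thbs1 (145.1 against 194 to 199 in the other aged rats) and Adamts4 (767.3 against 975 to 1000). Adult EH replicate 1 was highest for 3 genes of antigen presentation, RT1-CE5 (262.7 against 170 to 196 in the other adult rats), RT1-CE10 (553.6 against 194 to 251) and Tap1 (322.9 against 145 to 178). Adult EH replicate 2 was lowest for Pam (18036 against 20430 to 20965) and Nmb (28.7 against 39.7 to 43.3), and adult EH replicate 6 for Pcsk2 (4448 against 4650 to 4723). Adult EH replicate 4 was highest for Aldh1a2 (3118 against 2372 to 2579) and Olfml3 (650.8 against 494 to 532), and adult EH replicate 5 for Gipr (122.5 against 66.4 to 82.3). Among the aged rats, replicate 1 was highest for Ifitm1 (204.1 against 138 to 154) and Bpifb4 (104.6 against 62.1 to 70.6), replicate 2 for C1qa (2134 against 1604 to 1657) and replicate 6 for Mmp9 (99.6 against 41 to 51.2).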

How the results depend on the processing

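With moderation that does not follow the mean there were 516 DEGs (234 higher and 282 lower), and with a minimum absolute LFC of 0.5 there were 303 (139 and 164). Leaving out each rat in turn gave 594 to 906 DEGs (257 to 427 higher and 320 to 513 lower), the fewest without adult EH replicate 5 and 599 without aged EH replicate 4, and fewer rats are part of that change. The count was 727 to 1049 under the other alternatives, 1049 with libraries rescaled to the same total (302 higher and 747 lower). Of the 921 DEGs, 452 were called in every fit without a rat and 390 under every alternative but the minimum LFC. No named gene changed sign under any alternative. Scg2, Spock1, Pcsk1, Pcsk2, Pam, Igfbp3, RT1-S3, Tap1, Irf7, Hspa5 and Hsp90b1 lost their calls without the mean trend too, Scg2, Spock1, Pcsk2, Hspa5 and Hsp90b1 with libraries rescaled to the same total, and Col12a1, Pcsk1, Pam, RT1-CE10, RT1-S3 and Tap1 with robust moderation. Without the mean trend the lists kept 9 of 15 microglial, 7 of 15 MHC and interferon, 8 of 14 glycoprotein, 6 of 10 leptomeningeal, 5 of 8 collagen processing, 3 of 9 sterol and 1 of 9 ER calls.

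The labels do not say whether replicate numbers pair rats, and the main fit left the numbers out. Over all genes, same-numbered aged and adult rats had deviations from their group means that correlated at -0.048 to 0.12. With the number as a replicate block there were 824 DEGs (372 higher and 452 lower), 704 of them among the 921, and the ER and sterol calls fell from 9 to 5 each. Under the block Aqp4, Hspa5, Hsp90b1 and Trem2 lost their calls, and Agrn, C1qa, Creb3l1, Dcx and Mag gained one (adjusted p = 0.0211, 0.0267, 0.0183, 0.0177 and 0.0241).

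Count models on recovered reads were not run, because whole reads could not be recovered for all 10 libraries. The depth behind a value is therefore unknown, and small differences in genes near the minimum mean of 10 are not detectable as firmly as in abundant genes.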

Other observations

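Several genes outside the lists were among those with the largest rises. Procr, the endothelial receptor for protein C, was at 189.7 to 411 in aged and 94.2 to 145 in adult rats (2.24-fold, adjusted p = 0.00335 by limma). Lrg1, a secreted glycoprotein induced in inflamed endothelium, was at 172 to 255 and 78.2 to 143 (2.11-fold, 0.00211), and Serpina1, an inhibitor of neutrophil elastase, at 53.2 to 112 and 25.3 to 48.4 (2.06-fold, 0.0124). Clec5a, a lectin receptor of myeloid cells, rose 2.06-fold (0.00894), the ATP-gated channel P2rx5 1.89-fold (0.0067), the zinc transporter Slc39a4 1.99-fold (0.00426), the alkaline ceramidase Acer2 1.95-fold (0.000247), the monooxygenase Fmo2 1.95-fold (0.00558) and the homeobox gene Six4 2.37-fold (0.000894). Bpifb4, among the 15 DEGs with the lowest adjusted p, was at 105, 62.1, 68.9, 70.6 and 66.4 in aged and 14.0, 14.9, 13.6, 11.6 and 20.1 in adult rats. ND5, a mitochondrially encoded subunit of complex I and among the 10 DEGs with the highest mean, rose 1.21-fold (221434 ± 8358 against 182779.7 ± 13509, n = 5, adjusted p = 0.00898). None of these genes lost its call under an alternative in which it was tested, other than a minimum absolute LFC for ND5, and Bpifb4 was under the minimum mean of 50 in 1 of them.

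Among the lower genes outside the lists, Mall, a proteolipid related to Mal, was at 87.2, 114, 80.4, 68.7 and 66.4 in aged and 223, 223, 219, 231 and 229 in adult rats (2.73-fold, adjusted p = 9.3e-05), with almost no spread among the adult rats. Apcdd1, an inhibitor of Wnt signalling, was at 685 to 873 and 1226 to 1384 (1.62-fold, 9.3e-05), and Dchs1, a large cadherin of planar cell polarity, at 946 to 1053 and 1344 to 1527 (1.41-fold, 9.39e-05). Falls of larger size at low levels were seen in Zfp185 (2.65-fold, 0.000707), Sh3rf2 (2.42-fold, 0.0013), C1ql4 of the C1q-like synaptic proteins (2.29-fold, 0.000552), the interleukin-2 receptor chain Il2ra (1.94-fold, 0.016) and the ER cyclophilin Ppic (1.89-fold, 0.00539). In each of these 8 genes the 5 aged rats lay below the 5 adult rats. Genes named by their LFC had to have groups apart, so for them this is not a separate result.

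Of 11 tested markers of perivascular macrophages and T cells 2 were higher and 1 lower, and 1 was called without aged EH replicates 2, 5 or 6 or adult EH replicates 1 or 4. Of 25 heat shock chaperones 1 was higher, and 0 were called without aged EH replicates 4 or 5 or adult EH replicates 1, 4, 5 or 6, while 4 had an unadjusted p under 0.05. Of 16 glucocorticoid-responsive genes 1 was higher, 0 without aged EH replicate 2 or adult EH replicates 1 or 4 and 2 without aged EH replicate 4 (7 at an unadjusted p under 0.05), with a median LFC of 0.17. The heat shock and glucocorticoid shares, 4.0% and 6.25%, lay near the 5.99% of all genes tested that were DEGs.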
